A study of Mus musculus with 8 samples.

Results

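The genes described here are 38 genes of glucose uptake, glycolysis, lactate handling and the hypoxia response, followed through 8 Affymetrix arrays of mouse leukemic cells. Each gene was read from 1 probe set, a group of probes that together report 1 transcript. It had to carry that gene's symbol alone in the platform annotation, and where several did, the one with the highest mean log2 intensity over the 8 arrays was taken. Of the 38 genes 34 had such a probe set, among 18193 genes in all. Ero1l was found under its current symbol, Ero1a, and the other 33 under their own. Bnip3l and Gapdh have only probe sets shared with pseudogenes or control probe sets, and Gpi1 and Eno1 were not analysed here.

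All cells carried MLL-AF9, a fusion oncogene that joins a histone methyltransferase to a partner of the transcription elongation machinery, and all carried a short hairpin RNA. The hairpin was shLUC, which targets luciferase and serves as the control, or shSirt1, which targets the deacetylase gene Sirt1. Cells grew with SCF, IL-3 and IL-6 and received either DMSO, the solvent, or 3 µM EPZ4777, which blocks DOT1L, the enzyme that methylates lysine 79 of histone H3. Each of the 4 groups had 2 arrays, told apart by codes in the titles. These groups were shLUC in DMSO (A4 and D11), shLUC after 6 days in EPZ4777 (A4 and D11), shSirt1 in DMSO (A1 and A5) and shSirt1 after 21 days in EPZ4777 (A1 and A5). The labels give the DMSO arrays no time, and the hairpin and the time in drug change together, so the effects of these 2 cannot be told apart. No label states whether paired arrays within a group were independent cultures, and p-values here reflect the spread between samples, possibly a technical one.

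Glycolysis splits glucose into pyruvate in the cytosol. Glucose enters through facilitative transporters, is trapped by hexokinases, is committed at phosphofructokinase, and leaves as pyruvate, which lactate dehydrogenase turns into lactate for export by monocarboxylate transporters. Most of these genes, with angiogenic, mitophagy and collagen-modifying genes, are known targets of HIF-1, a transcription factor whose alpha subunit is marked for degradation by oxygen-dependent prolyl hydroxylases. Myeloid leukemia cells in culture rely heavily on glycolysis, and mature neutrophils take most of their energy from it.

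HIF-1 binds a short core word, ACGTG or GCGTG, in DNA that is open in the cell. These words were sought on both strands, where they read CACGT or CACGC along the gene, in RefSeq windows from 250 bases before to 50 after each annotated start (build GRCm38.p6). A window existed for 32 of the 34 genes, Slc2a3 and Ndrg1 having none. At least 1 word stood in a window of 30 of these 32 genes (93.8%), against 46.7% of all 27025 genes with a window and 59.3% of the 14453 of them that the array annotation names. Counted by window, 36 of 44 (81.8%) held a word, against 43.8% of 32851. The windows of these genes were also richer in CpG, with a median of 24 CpGs in a gene's richest window against 18, and both words hold a CpG themselves. Eno2 and Tpi1 had no match. The 250 bases before the start are shown for 4 genes that were higher or lower together under the drug, 3 lower and 1 higher, with the words in capitals. Bnip3 lies on the minus strand at chr7:138909507-138909756, Car9 on the plus strand at chr4:43506776-43507025, P4ha1 on the plus strand at chr10:59323046-59323295 and Pfkfb4 on the plus strand at chr9:108991652-108991901.
Bnip3: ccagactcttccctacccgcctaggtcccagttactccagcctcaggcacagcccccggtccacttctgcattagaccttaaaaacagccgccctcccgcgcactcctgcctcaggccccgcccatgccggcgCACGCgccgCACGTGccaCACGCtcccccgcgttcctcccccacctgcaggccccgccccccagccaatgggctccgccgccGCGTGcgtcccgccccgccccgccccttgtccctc
Car9: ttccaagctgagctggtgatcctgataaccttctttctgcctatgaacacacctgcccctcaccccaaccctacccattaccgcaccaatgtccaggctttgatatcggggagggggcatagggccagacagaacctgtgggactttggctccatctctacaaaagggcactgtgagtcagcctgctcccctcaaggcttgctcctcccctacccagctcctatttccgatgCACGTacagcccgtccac
P4ha1: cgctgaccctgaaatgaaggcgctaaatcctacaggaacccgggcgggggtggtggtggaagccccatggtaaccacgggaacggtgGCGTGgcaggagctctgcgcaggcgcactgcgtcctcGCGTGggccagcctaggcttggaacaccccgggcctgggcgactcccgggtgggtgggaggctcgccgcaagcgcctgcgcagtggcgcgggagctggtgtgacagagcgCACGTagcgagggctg
Pfkfb4: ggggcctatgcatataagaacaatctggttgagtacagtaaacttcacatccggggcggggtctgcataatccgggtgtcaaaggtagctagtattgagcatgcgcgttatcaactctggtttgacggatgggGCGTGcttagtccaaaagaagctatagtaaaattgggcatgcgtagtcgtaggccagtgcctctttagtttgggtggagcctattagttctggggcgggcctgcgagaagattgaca
The stretches held 5, 1, 3 and 1 matches in this order. In Bnip3 the middle run CACGTG is a pair of overlapping matches, 1 per strand, and 6 windows of these genes held it. Car9 has its single word close to the start. Genes with a word had a median log2 difference between EPZ4777 and DMSO of -0.30, and 25 of the 30 were negative. Both genes without one were negative too. Genes that were higher, such as Pfkfb4 and Hk3, also held a word. With only 2 genes lacking a word, its presence could hardly separate higher from lower genes, and nothing is concluded about direction. A match is only a run of letters, and binding was not measured here.

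**Figure D1:**
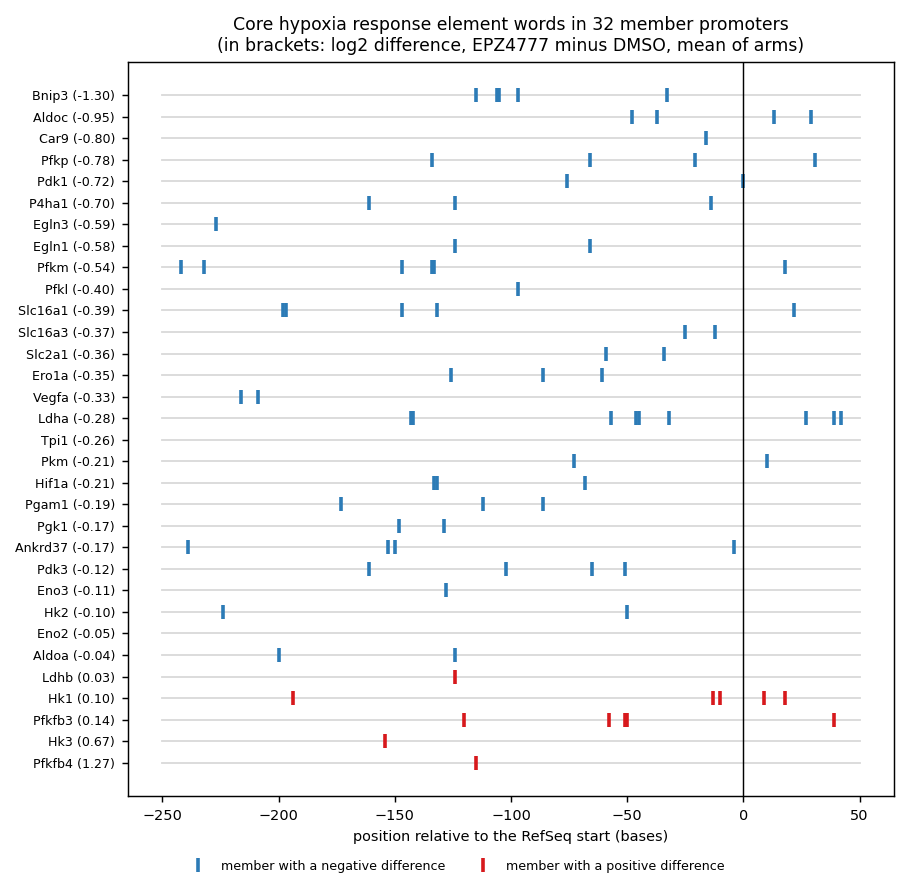
Positions of the words ACGTG and GCGTG (either strand) in the promoter windows of 32 genes, in bases from the RefSeq start, with genes ordered by their log2 difference between EPZ4777 and DMSO averaged over both hairpin arms. Each tick is 1 match in any window of the gene; Bnip3 (-1.30) at the top and Pfkfb4 (1.27) at the bottom both hold matches, and Tpi1 and Eno2 hold none.

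The 8 arrays were alike in overall intensity, with medians of all probe sets between 5.22 and 5.28 log2 and lower quartiles between 3.75 and 3.84. Sirt1 was lower only on the arrays of code A1, at 8.70 in DMSO and 8.85 in EPZ4777. It stood at 9.55 and 9.73 on those of A5, within the 9.44 to 9.83 of the shLUC arrays, so these are called cells labelled shSirt1. Meis1, a leukemia gene that depends on DOT1L, lay between 6.91 and 7.94 in DMSO and between 3.62 and 5.27 in EPZ4777 on all 4 codes. Of 12 myeloid progenitor markers only Cd34 was below the lower quartile on every array, and Mpo, Ctsg and Prtn3 were all above 12.7 log2. Neutrophil markers moved with the drug, with median differences over 13 genes of 1.67 in A4, 2.95 in D11, 3.56 in A1 and 3.27 in A5. Their summed intensity was 12000 to 38700 on DMSO arrays and 77600 to 133000 on EPZ4777 arrays. Macrophage markers (10 genes) had medians of 1.25 and 2.01 in the shLUC codes and of -0.03 and -0.04 in the other codes. No marker of either list was below the lower quartile on all arrays. In such bulk samples fewer cells of a type and less RNA per cell cannot be told apart, and the part of these markers in the results below was not tested.

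On the EPZ4777 arrays most of these genes were lower, but within a hairpin arm only Car9 passed the threshold in the fit without a block, and only in shLUC. This holds for the 1 probe set chosen per gene, and further probe sets that passed are given below. Genes were tested with limma, with p-values adjusted over all 18193 genes and a threshold of 0.05. In shLUC cells 26 of the 34 had a negative difference, against 50.4% of all genes, with a median of -0.20 on the log2 scale against -0.0025. Only 1 passed, Car9, where 3.98% of all genes did (2.36% in the lower direction). With the title code as a replicate block 3 of 34 passed, where 7.23% of all genes did. Of these Hk3 was higher (3.63% of all genes were) and Car9 and Egln3 were lower (3.61% of all genes were). In cells labelled shSirt1 29 had a negative difference, against 48.1% of all genes, with a median of -0.29 against 0.01. None passed in the limma fit (10 of the 34, and 2876 of all 18193 genes, had an unadjusted p under 0.05), where 0.396% of all genes did. With the block Aldoc and Car9 passed, both lower, where 2.22% of all genes did (0.907% in the lower direction).

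Averaging the effects at 6 and 21 days over both arms gave 6 genes past the threshold, where 10.9% of all genes passed. The glucose transporter Slc2a3, the regulatory kinase Pfkfb4 and the hexokinase Hk3 rose (3 of 34, where 4.88% of all genes rose), and Car9, Aldoc and Ero1a fell (3 of 34, where 6% of all genes fell). The median of the 34 genes was -0.24 against 0.01 for all genes, and 27 were negative, against 48.8%. With the block 11 passed, where 16.1% of all genes did: the same 6, and Egln3, Pfkm, Bnip3, Slc16a1 and P4ha1, all lower. In the blocked fit 3 rose, where 7.49% of all genes did, and 8 fell, where 8.59% of all genes did. The 6 genes are 17.6% of the 34, and the 11 are 32.4%. The count without the block depended on single arrays. With each of the 8 arrays left out in turn it changed widely, and so did the count of all genes. Car9 kept its call in most of these fits, and none of the 6 genes kept it in all. Such fits leave a group with 1 array, so only differences are given here. The median of the 34 genes ranged from -0.334 to -0.153. Car9 ranged from -0.883 to -0.725, Aldoc from -1.11 to -0.789 and Ero1a from -0.397 to -0.309. Slc2a3 ranged from 1.61 to 2.63, Pfkfb4 from 0.989 to 1.55 and Hk3 from 0.508 to 0.83.

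**Figure D2:**
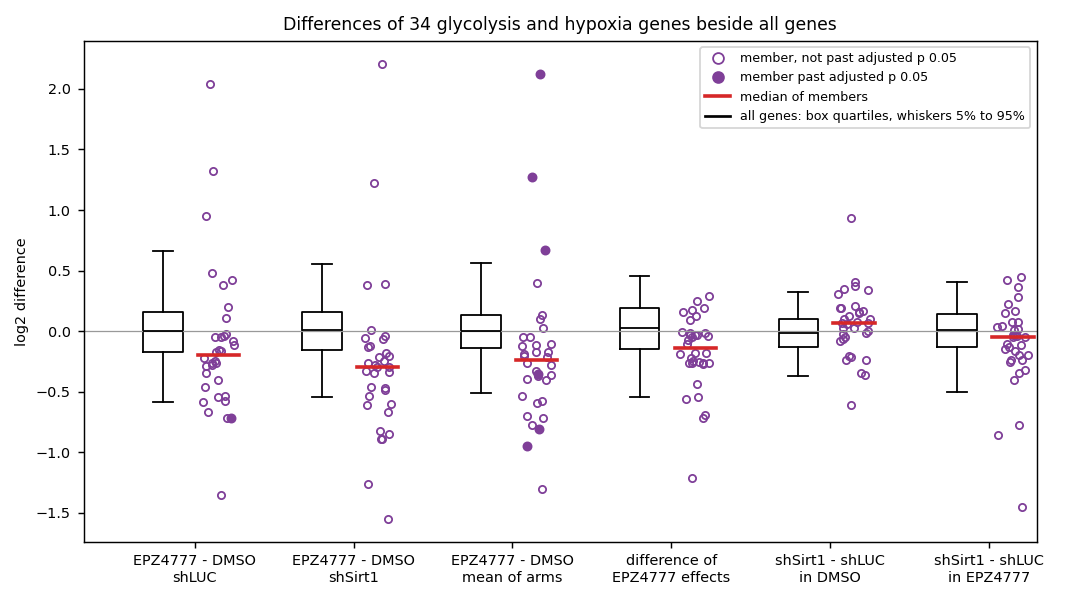
Log2 differences of the 34 genes (circles, filled where the limma adjusted p was under 0.05) beside all 18193 genes (boxes of quartiles, whiskers from 5% to 95%) in 6 comparisons; red bars are the medians of the 34 genes. In the 3 drug comparisons the red bar lies below the median of all genes, at -0.20, -0.29 and -0.24, while Slc2a3 stands highest at 2.04, 2.21 and 2.12.

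The sign of the difference was shared by all 4 codes in 19 genes. It was negative in all 4 for 15 of the 34, where 19.6% of all genes were so: Pfkm, Pfkp, Aldoc, Tpi1, Pgam1, Eno2, Ldha, Slc16a1, Car9, Bnip3, Egln1, Egln3, Ero1a, P4ha1 and Hif1a. It was positive in all 4 for Slc2a3, Hk3, Pfkfb4 and Ndrg1, 4 of the 34, where 18.7% of all genes were so. The other 15 were mixed. The 4 EPZ4777 arrays lay wholly below the 4 DMSO arrays for 7 genes, where 9.94% of all genes did so: Pfkm, Pfkp, Ldha, Car9, Bnip3, Ero1a and P4ha1. They lay wholly above for Slc2a3 and Pfkfb4, 2 of 34, where 8.05% of all genes did so. Within shLUC both drug arrays lay above both DMSO arrays for 7 genes and below for 15, where 24.2% and 28.2% of all genes did so. Within cells labelled shSirt1 they lay above for 4 and below for 19, where 26% and 23% of all genes did so. Across the 34 genes the effects of the arms, which share no array, had a Pearson correlation of 0.88 and a Spearman correlation of 0.75. Over all genes these were 0.65 and 0.52. Genes are not independent replicates, and the arrays of all groups were measured on 1 platform.

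**Figure D3:**
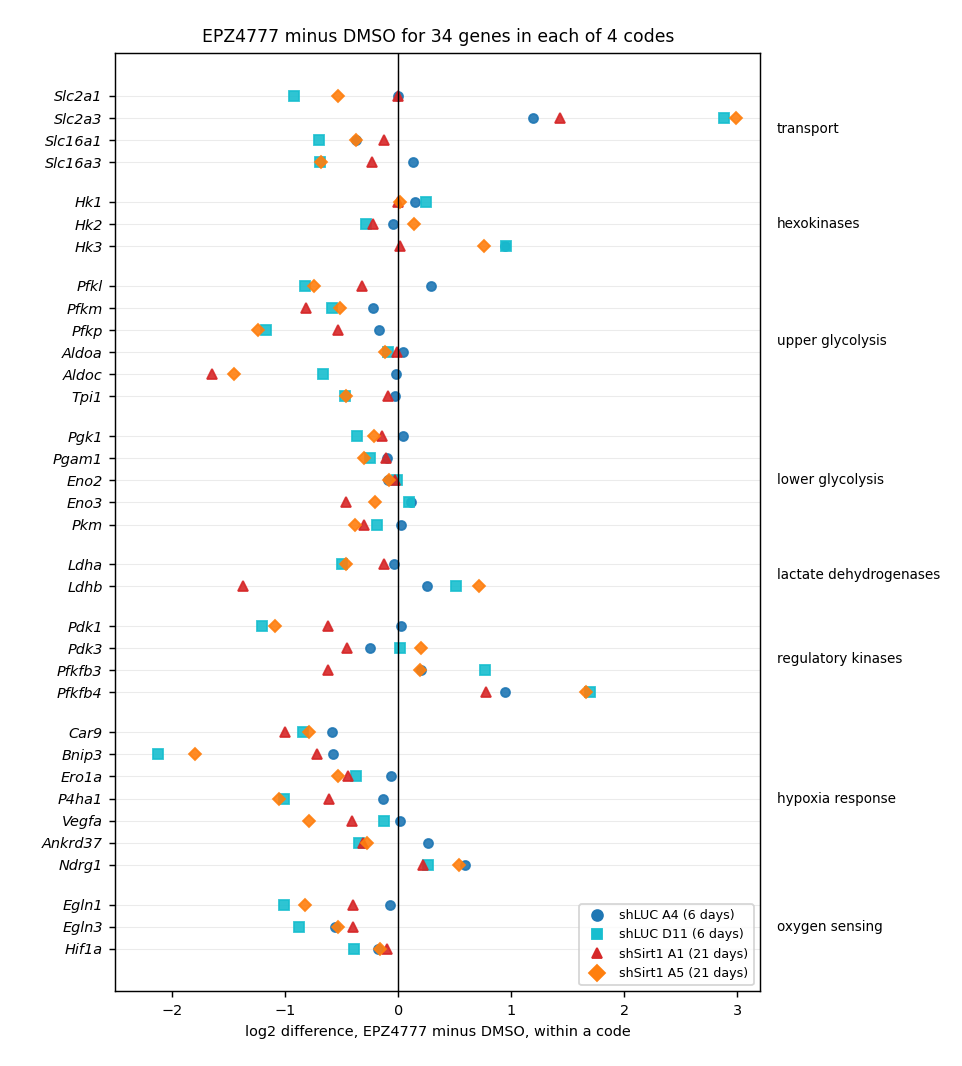
EPZ4777 minus DMSO on the log2 scale for the 34 genes, grouped by role, with 1 symbol for each title code (circle A4, square D11, triangle A1, diamond A5). Most symbols lie left of 0, Slc2a3, Hk3, Pfkfb4 and Ndrg1 lie right of it in all 4 codes, and A4 lies nearest to 0 for many genes.

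Of the glucose transporters only Slc2a3 passed. It encodes the high-affinity transporter GLUT3 and read 8.31 (A4) and 8.66 (D11) in shLUC DMSO and 9.50 and 11.54 in EPZ4777. In cells labelled shSirt1 it read 8.82 (A1) and 8.52 (A5) in DMSO and 10.26 and 11.52 in EPZ4777. All 4 EPZ4777 arrays were above all DMSO arrays, and D11 and A5 were the higher code of each drug group. The mean difference was 2.12 ± 0.47 log2 (SE), a 4.36-fold rise, with a limma adjusted p of 0.0355 (0.0243 with the block). Slc2a1, which encodes the widely expressed GLUT1, read 11.25 and 11.54 in shLUC DMSO and 11.25 and 10.63 in EPZ4777, and 11.08 and 11.02 in shSirt1 DMSO and 11.08 and 10.50 in EPZ4777. It was lower on the EPZ4777 arrays of D11 and A5 and level on those of A4 and A1, for a mean difference of -0.36 ± 0.18 (limma adjusted p 0.258). Slc16a1, the lactate carrier MCT1, read 11.99 and 11.93 in shLUC DMSO, 11.62 and 11.23 in EPZ4777, 12.16 and 12.07 in shSirt1 DMSO and 12.04 and 11.71 in EPZ4777. It was lower in each code, and its difference of -0.39 ± 0.12 passed with the block (limma adjusted p 0.0478) and not without it (0.0806). Slc16a3, the lactate exporter MCT4, had a difference of -0.37 ± 0.20 (limma adjusted p 0.302) and was higher in A4.

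Of the hexokinases, which phosphorylate glucose, only Hk3 passed. Hk3, the isoenzyme of myeloid cells, read 10.36 and 10.42 in shLUC DMSO and 11.30 and 11.38 in EPZ4777. The A1 and A5 arrays read 10.23 and 10.12 in DMSO and 10.24 and 10.89. The shLUC arrays separated by 0.95 and 0.96 in A4 and D11, the shSirt1 arrays by 0.01 in A1 and 0.76 in A5. The mean difference was 0.67 ± 0.14 (limma adjusted p 0.0326, 0.0331 with the block). Hk2, the inducible isoenzyme, lay between 9.92 and 10.35 on all arrays, with overlapping groups and a difference of -0.10 ± 0.10. Hk1, the housekeeping isoenzyme, lay between 9.95 and 10.29 with a difference of 0.10 ± 0.07, and its other probe set gave -0.23.

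The upper part of glycolysis, from phosphofructokinase to triosephosphate isomerase, had 6 genes, all with a negative mean difference and a median of -0.47. Aldoc, an aldolase, read 9.21 and 9.39 in shLUC DMSO and 9.19 and 8.73 in EPZ4777, and 9.38 and 8.74 in shSirt1 DMSO and 7.72 and 7.29 in EPZ4777. Both shSirt1 EPZ4777 arrays were lower than every other array, while A4 was level. The mean difference was -0.95 ± 0.18 (limma adjusted p 0.0276, 0.0155 with the block). Within cells labelled shSirt1 it was -1.55 ± 0.26, with a limma adjusted p of 0.0750 and of 0.0283 with the block, and within shLUC -0.34 ± 0.26 (limma adjusted p 0.529). The other, dimmer Aldoc probe set passed in both arms, among all 34945 probe sets with 1 symbol. Its difference was -0.86 ± 0.18 in shLUC (limma adjusted p 0.0481) and -1.41 ± 0.18 in cells labelled shSirt1 (limma adjusted p 0.0475).

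The phosphofructokinase subunits make the enzyme that commits sugar to glycolysis. Pfkm, the muscle-type subunit, read 7.81 and 7.61 in shLUC DMSO, 7.58 and 7.02 in EPZ4777, 8.05 and 7.62 in shSirt1 DMSO and 7.24 and 7.11 in EPZ4777. All EPZ4777 arrays were below all DMSO arrays, and its difference of -0.54 ± 0.15 passed with the block (limma adjusted p 0.0283, 0.0720 without). Pfkp, the platelet type, had a larger difference, -0.78 ± 0.26, and a larger spread between codes, from -0.17 in A4 to -1.24 in A5 (limma adjusted p 0.107). Pfkl, the liver type, was 0.29 higher in A4 and 0.83, 0.32 and 0.75 lower in D11, A1 and A5. It read 8.21 and 8.45 in shLUC DMSO, 8.50 and 7.62 in EPZ4777, 8.51 and 8.47 in shSirt1 DMSO and 8.19 and 7.73 in EPZ4777, so its groups overlapped (-0.40 ± 0.20, limma adjusted p 0.264). Tpi1, triosephosphate isomerase, differed by -0.26 ± 0.14 and was lower in all 4 codes. Aldoa, the main aldolase, stayed between 13.21 and 13.38 on all arrays (-0.04 ± 0.08).

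The lower part, which harvests ATP, had small negative differences and no gene past the threshold. Pkm, pyruvate kinase, read 11.42 and 11.36 in shLUC DMSO, 11.45 and 11.18 in EPZ4777, 11.57 and 11.35 in shSirt1 DMSO and 11.27 and 10.97 in EPZ4777. The arrays of both agents overlapped, and the difference was -0.21 ± 0.11 (limma adjusted p 0.268). Pgk1, phosphoglycerate kinase, differed by -0.17 ± 0.10 and Pgam1, phosphoglycerate mutase, by -0.19 ± 0.11. Of the enolases, Eno2 lay under the lower quartile on all arrays (3.14 to 3.32), so its difference of -0.05 ± 0.07 says little. Eno3 read 5.60 and 5.74 in shLUC DMSO, 5.72 and 5.83 in EPZ4777, 6.24 and 5.91 in shSirt1 DMSO and 5.78 and 5.71 in EPZ4777. It was slightly higher with the drug in shLUC and lower in cells labelled shSirt1. Gapdh, glyceraldehyde-3-phosphate dehydrogenase, was read from the platform's 3 control probe sets for it, which were outside the tests. Each had a negative difference in each code, from -0.033, -0.079 and -0.13 in A4 to -0.14, -0.27 and -0.30 in D11. It was -0.076, -0.15 and -0.13 in A1 and -0.25, -0.29 and -0.19 in A5, in the order 3', middle and 5'. The 3' set exceeded the 5' set by 0.032 to 0.29 log2, a measure of RNA quality. This gap was 0.13 and 0.14 in shLUC DMSO and 0.22 and 0.29 in EPZ4777, so the agents separated within shLUC. On the A1 and A5 arrays it was 0.032 and 0.13 in DMSO and 0.090 and 0.070 in EPZ4777. For Actb it was 0.81 and 0.82 in shLUC DMSO and 0.86 and 0.80 in EPZ4777. On the A1 and A5 arrays the Actb gap was 0.90 and 0.83 in DMSO and lower, 0.77 and 0.67, in EPZ4777. The part of these gaps in the results was not tested.

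Ldha, the lactate dehydrogenase subunit that favours lactate, read 13.40 and 13.42 in shLUC DMSO and 13.36 and 12.93 in EPZ4777. On the arrays of A1 and A5 it read 13.47 and 13.48 in DMSO and 13.34 and 13.02 in EPZ4777. All EPZ4777 arrays were below all DMSO arrays, yet the difference of -0.28 ± 0.12 did not pass (limma adjusted p 0.193, 0.153 with the block). Ldhb, the subunit that favours pyruvate, read 8.90 on the A1 DMSO array and 7.21 to 8.30 on the others. Its difference was 0.03 ± 0.30 and turned to -0.49 without code A5. It turned to -0.00335 under median centring.

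The regulatory kinases did not move together. Pfkfb4, which makes and breaks down the phosphofructokinase activator fructose 2,6-bisphosphate, read 7.12 and 7.48 in shLUC DMSO and 8.06 and 9.18 in EPZ4777. For A1 and A5 it read 7.17 and 6.96 in DMSO and 7.95 and 8.61. Again all EPZ4777 arrays were above all DMSO arrays, with D11 and A5 the higher codes. The difference was 1.27 ± 0.27, a 2.41-fold rise (limma adjusted p 0.0323, 0.0197 with the block). Pfkfb3, its paralog of higher kinase activity, differed by 0.14 ± 0.15, and was lower in A1. Pdk1, which inhibits pyruvate dehydrogenase, read 11.30 and 11.31 in shLUC DMSO and 11.33 and 10.11 in EPZ4777. For A1 and A5 it read 11.50 and 11.32 in DMSO and 10.88 and 10.23. The A4 arrays were level and the other codes 0.62 to 1.20 lower, for a difference of -0.72 ± 0.27 that did not pass (limma adjusted p 0.141, 0.0818 with the block). Pdk3 differed by -0.12 ± 0.12, with codes of either sign.

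**Figure D4:**
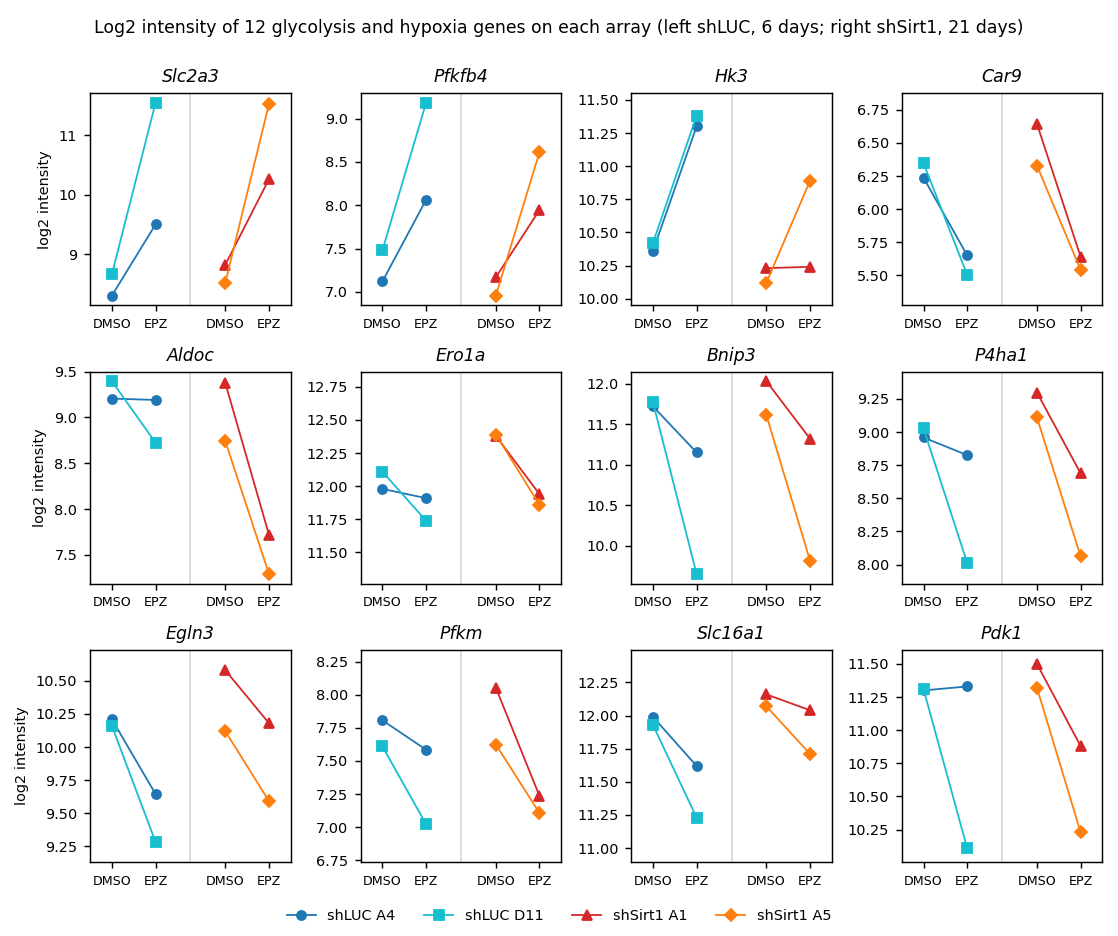
Log2 intensity of 12 genes on each array, shLUC (6 days in drug) on the left and cells labelled shSirt1 (21 days) on the right of each panel; lines join the DMSO and EPZ4777 arrays of 1 code and each panel has its own axis. Slc2a3 and Pfkfb4 rise in all codes, Car9 drops to 5.51 to 5.65 in all codes, and Bnip3 and P4ha1 drop further in D11 and A5 than in A4 and A1.

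Among the hypoxia response genes 6 of 7 had a negative difference, with a median of -0.35. Car9, carbonic anhydrase 9, which handles the acid that glycolysis makes, read 6.24 and 6.35 in shLUC DMSO and 5.65 and 5.51 in EPZ4777. In shSirt1 DMSO it read 6.64 and 6.33 and in EPZ4777 5.64 and 5.54. The drug arrays lay close together in both arms and below all DMSO arrays. Car9 had 1 probe set and was dim, with a mean of 5.99 against a median of 6.13 over genes. The part of this low level in the closeness of the drug arrays was not tested. Car9 fell by 0.71 ± 0.14 in shLUC (limma adjusted p 0.0432), and over both arms the difference was -0.80 ± 0.10 (limma adjusted p 0.0119). In cells labelled shSirt1 the difference was -0.89 ± 0.14, with a limma adjusted p of 0.0636 and of 0.0385 with the block. The call in shLUC was lost without any 1 of the 4 shLUC arrays. The limma adjusted p was then 0.228 or 0.233 without the DMSO array of A4 or D11, and 0.0549 or 0.196 without their EPZ4777 arrays. It was 0.0576 without either shSirt1 EPZ4777 array.

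Bnip3, a mitophagy receptor, had the largest negative mean difference of the 34 genes. It read 11.72 and 11.77 in shLUC DMSO and 11.15 and 9.65 in EPZ4777, and 12.03 and 11.61 in shSirt1 DMSO and 11.32 and 9.81 in EPZ4777. All drug arrays were below all DMSO arrays, but the D11 and A5 arrays were far lower than those of A4 and A1. The difference of -1.30 ± 0.41, to 40.6% of the DMSO level, passed with the block (limma adjusted p 0.0452) and not without it (0.0915). P4ha1, a collagen prolyl hydroxylase subunit, read 8.96 and 9.03 in shLUC DMSO, 8.83 and 8.01 in EPZ4777, 9.30 and 9.11 in shSirt1 DMSO and 8.69 and 8.06 in EPZ4777. Here too the drug arrays of D11 and A5 were lower than those of A4 and A1. Its difference of -0.70 ± 0.21 also passed with the block (limma adjusted p 0.0483, 0.0767 without).

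Ero1a, the oxidase that renews disulfide bonding in the endoplasmic reticulum, read 11.98 and 12.11 in shLUC DMSO and 11.91 and 11.74 in EPZ4777. In shSirt1 DMSO it read 12.38 and 12.39 and in EPZ4777 11.94 and 11.86. The groups did not overlap and the difference was small, -0.35 ± 0.08 (limma adjusted p 0.0383, 0.0482 with the block). Vegfa, the angiogenic growth factor, read 9.51 and 9.40 in shLUC DMSO and 9.52 and 9.27 in EPZ4777. In shSirt1 DMSO it read 9.83 and 9.69 and in EPZ4777 9.42 and 8.90. On this probe set it was near level in shLUC and lower in cells labelled shSirt1, for -0.33 ± 0.13 over both (limma adjusted p 0.163). The other Vegfa set did not show this contrast, with -0.56 ± 0.16 in shLUC and -0.46 ± 0.16 in cells labelled shSirt1. Ankrd37, a small ankyrin-repeat protein, differed by -0.17 ± 0.15 and was higher in A4. Ndrg1, a gene induced by stress and differentiation, went the other way. It read 8.79 and 9.14 in shLUC DMSO, 9.38 and 9.40 in EPZ4777, 8.59 and 8.62 in shSirt1 DMSO and 8.80 and 9.16 in EPZ4777. It was higher in each code, by 0.40 ± 0.12 (limma adjusted p 0.0716, 0.0506 with the block).

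The oxygen-sensing genes were all lower in all 4 codes. Egln3, the prolyl hydroxylase PHD3, itself known to be induced by HIF-1, read 10.21 and 10.16 in shLUC DMSO and 9.65 and 9.29 in EPZ4777. In shSirt1 DMSO it read 10.58 and 10.12 and in EPZ4777 10.18 and 9.59. Groups separated within shLUC and overlapped in cells labelled shSirt1, where A1 was higher throughout. The difference of -0.59 ± 0.17 passed with the block (limma adjusted p 0.0182, 0.0699 without), as did that in shLUC, -0.72 ± 0.24 (limma adjusted p 0.0375, 0.138 without). Egln1, the main prolyl hydroxylase PHD2, differed by -0.58 ± 0.27, from -0.07 in A4 to -1.01 in D11 (limma adjusted p 0.222). Hif1a, the regulated subunit of HIF-1, read 12.03 and 11.98 in shLUC DMSO, 11.85 and 11.59 in EPZ4777, 11.98 and 11.87 in shSirt1 DMSO and 11.88 and 11.71 in EPZ4777. The A1 EPZ4777 array lay just above the A5 DMSO array, and the difference was -0.21 ± 0.09 (limma adjusted p 0.195). RNA says nothing of the HIF-1 alpha protein, which is regulated after translation.

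Several genes had further probe sets, and these mostly went the same way. Of 21 genes with more than 1, 18 had the same sign on all of them over both arms, the exceptions being Hk1, Ldhb and Pfkl. With p-values adjusted over all 34945 probe sets with 1 symbol, some passed where the chosen one did not. Over both arms these belonged to Hif1a, Pfkp, Vegfa and Ndrg1. Hif1a had further sets at -0.50 ± 0.11 (limma adjusted p 0.0350) and -0.61 ± 0.08 (limma adjusted p 0.0142), both at lower intensity. Pfkp had one at -0.99 ± 0.17 (limma adjusted p 0.0214) and Vegfa one at -0.51 ± 0.12 (limma adjusted p 0.0382). Ndrg1 had one at 0.85 ± 0.14 (limma adjusted p 0.0185) and one at 0.42 ± 0.09 (limma adjusted p 0.0355). Those of Slc2a3 were split, with 2.12 ± 0.43 on one and 0.42 and 0.22 on the dimmest 2, which lay near the lower quartile of the arrays. In shLUC alone further probe sets of 5 genes passed where the chosen one did not. Besides that of Aldoc, these were sets of Ero1a at -0.57 ± 0.11, Hif1a at -0.83 ± 0.12, Slc16a1 at -0.94 ± 0.19 and Ndrg1 at 1.14 ± 0.19. Their limma adjusted p was 0.0408, 0.0272, 0.0448 and 0.0319, and all had a lower intensity than the chosen set. Only the further set of Aldoc passed in cells labelled shSirt1. Together the genes described here had 75 probe sets, so a gene with several had more chances to pass. The share of all 34945 probe sets that passed is not given here. Whether these further calls exceed that share therefore cannot be told.

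For these genes the arrays of a drug group differed from each other more than those of a DMSO group. The median difference of the 34 genes was -0.0064 in A4, -0.37 in D11, -0.31 in A1 and -0.38 in A5, against 0.01, -0.02, 0.01 and 0.01 for all genes. Negative differences numbered 17, 25, 30 and 25 of 34. In A4 only 3 genes were lower by more than 0.5 log2, against 13 in D11, 9 in A1 and 14 in A5, where 5.54%, 10.3%, 5.37% and 8.49% of all genes were. In shLUC the median absolute gap between both arrays was 0.08 in DMSO and 0.36 in EPZ4777, against 0.12 and 0.18 for all genes. In cells labelled shSirt1 it was 0.20 and 0.42, against 0.15 and 0.16. The neutrophil marker median was also lowest in A4 (1.67), but highest in A1 (3.56). Their summed intensity on the EPZ4777 arrays was 80000 in A4 and 77600 in A1, against 125000 in D11 and 133000 in A5. On the DMSO arrays it was 29400, 12000, 38700 and 32700 in the same order. The part of these markers in the gaps between arrays was not tested. Without the shLUC EPZ4777 array D11 the median of the 34 genes in shLUC went from -0.20 to -0.01.

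The drug effect was not shown to differ between the arms for any of these genes. The difference of effects, shSirt1 at 21 days minus shLUC at 6 days, had a median of -0.14 over the 34 genes against 0.03 for all genes, and 27 were negative, against 45.6%. By limma 0 of 34 passed and 0% of all genes did, with 1 of the 34 and 1221 of all genes at an unadjusted p under 0.05. With the block 0 of 34 and 3 of all genes (0.0165%) passed. The 1 gene was Aldoc, with a difference of -1.21 ± 0.37 (limma adjusted p 0.633, 0.322 with the block). The median turned to 0.03 without the shLUC EPZ4777 array A4.

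Between hairpins in DMSO 22 of the 34 genes were higher in cells labelled shSirt1. The median was 0.07, against -0.01 for all genes, and ranged from -0.0511 to 0.161 with 1 array left out. By limma 0 of 34 passed and 0% of all genes did (985 at an unadjusted p under 0.05). Of the 34, 3 had such a p: Eno3 at 0.41 ± 0.14, Ero1a at 0.34 ± 0.11 and Ankrd37 at -0.61 ± 0.21. In EPZ4777 21 were lower in cells labelled shSirt1. The median was -0.05, against 0.01. There too 0 of 34 passed by limma, where 0.308% of all genes did, and 6 of the 34 and 2427 of all genes had an unadjusted p under 0.05. The lowest adjusted p was that of Aldoc, at -1.45 ± 0.26 (limma adjusted p 0.0882). Ankrd37 followed with -0.86 ± 0.21 (0.160) and Hk3 with -0.78 ± 0.20 (0.166). Slc16a1 was the highest, at 0.45 ± 0.17 (limma adjusted p 0.316). The median in EPZ4777 turned to 0.15 without the shLUC EPZ4777 array A4 and went to -0.24 without D11. These comparisons share the DMSO or EPZ4777 arrays with the drug comparisons above.

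Neighbouring pathways were read from lists of other genes. Of 29 further glycolysis genes 2 rose and 2 fell over both arms, where 4.88% and 6% of all genes did, with a median of -0.06. Adpgk, an ADP-dependent glucokinase, rose by 1.01 ± 0.23 (limma adjusted p 0.0395) and Slc16a7, the carrier MCT2, by 0.50 ± 0.12 (limma adjusted p 0.0407). Slc2a6, the lysosomal transporter GLUT6 of myeloid cells, fell by 0.52 ± 0.12 (limma adjusted p 0.0385), and Bpgm, bisphosphoglycerate mutase, by 0.28 ± 0.07 (limma adjusted p 0.0485). Slc2a6 was also lower in cells labelled shSirt1 than in shLUC in EPZ4777, with a difference of -1.81 ± 0.17 (limma adjusted p 0.0193). In DMSO that difference was already -1.11 ± 0.17 (limma adjusted p 0.796). Of 11 genes of pyruvate oxidation 0 passed, where 10.9% of all genes did, and 9 were negative, against 48.8% of all genes. Their median was -0.29. With the block Pdha1 and Pdhx, subunits of pyruvate dehydrogenase, fell by 0.40 and 0.41 (limma adjusted p 0.0478 and 0.0236). In that fit 8.59% of all genes fell. In the pentose phosphate pathway 1 of 7 rose, where 4.88% of all genes did, and 6 of 7 were positive. It was the epimerase Rpe, with a rise of 0.44 ± 0.09 (limma adjusted p 0.0338).

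Other known hypoxia targets moved either way. Of 27, 2 rose and 3 fell over both arms, where 4.88% and 6% of all genes did, with a median of -0.13. Mxi1, a MYC antagonist, rose by 0.78 ± 0.14 (limma adjusted p 0.0236) and Cited2, which competes with HIF-1 for its coactivator, by 0.47 ± 0.08 (limma adjusted p 0.0223). Car12, a carbonic anhydrase related to Car9, fell by 1.23 ± 0.22 (limma adjusted p 0.0223). Selenbp1, a selenium-binding protein, fell by 1.06 ± 0.24 (limma adjusted p 0.0387), and Plod1, a collagen lysyl hydroxylase, by 0.50 ± 0.11 (limma adjusted p 0.0320). Of 13 genes of the HIF pathway itself 1 passed, where 10.9% of all genes did. It was the coactivator Ep300, which rose by 0.60 ± 0.11 (limma adjusted p 0.0260). In shLUC alone Car12 fell by 1.73 ± 0.31, and Cited2 and Ep300 rose by 0.65 ± 0.12 and 0.79 ± 0.16 (limma adjusted p 0.0381, 0.0383 and 0.0473). There 3.98% of all genes passed, 2.36% in the lower direction.

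**Figure D5:**
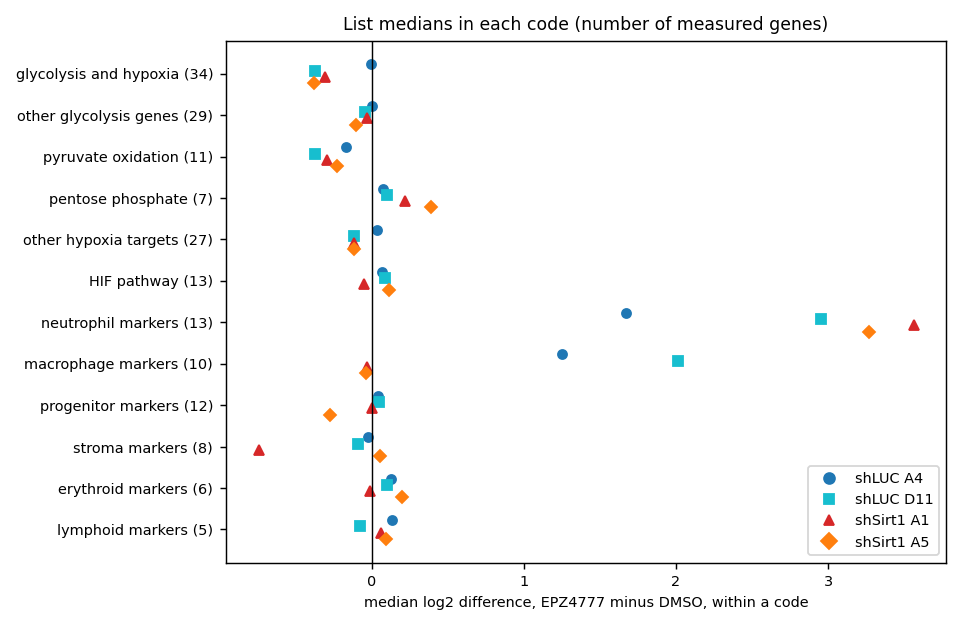
Median log2 difference between EPZ4777 and DMSO in each title code for the 34 genes, 5 related lists and 6 lists of cell type markers; the number of measured genes is in brackets. The 34 genes lie left of 0 in D11, A1 and A5 and level with 0 in A4 (-0.0064). Pyruvate oxidation lies left of 0 in all codes, nearest to 0 in A4 (-0.167). The pentose phosphate list lies right of 0, the other metabolic lists lie near 0, and the neutrophil markers lie far to the right in all codes.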

How the data were processed

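RNA of 8 samples was measured on 1 Affymetrix array each. Per the submitters' processing notes the intensity values the authors deposited were made with RMA, which corrects background, normalizes between arrays and summarises probes, and pulls dim signals toward a floor. Its version is not given in sources used here. The values are linear, as read from their range, and their log2 was analysed without a pseudocount or added normalization.

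From the 45101 probe sets, 64 controls, 932 with several symbols and 9160 not listed in the annotation were left out, and 1 probe set per gene was kept as described above. Dim genes stayed in.

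Group means over all 8 arrays were fitted with limma 3.58.1 (lmFit, eBayes) in R 4.3.3, with 4 residual degrees of freedom. P-values are two-sided, Benjamini-Hochberg adjusted over 18193 genes, and passed under 0.05. Exact tests between 2 pairs of arrays have a smallest p of 0.333. Alternative fits held the title code as a fixed replicate block (2 residual degrees of freedom) or a random one. The pairing comes from codes that DMSO and EPZ4777 titles share. Deviations from the group mean correlated between the agents at 0.293 (shLUC) and 0.378 (shSirt1) over genes, and at 0.0402 (DMSO) and 0.401 (EPZ4777) between unrelated codes. Over the 34 genes these were 0.305, -0.113, 0.300 and 0.856. The unrelated codes matched here were A4 with A1. With 2 arrays a group the deviations mirror each other, so matching A4 with A5 would reverse the sign of these values. In size the unrelated codes reached 0.401 over genes and 0.856 over the 34, above the shared codes. The check therefore cannot decide for or against the pairing in either arm, and calls made only with the block rest on that pairing.

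All 34 genes are reported, with values per array for those past the threshold in either fit, those with the largest differences and the best known of each step. The genes and lists were chosen with earlier results of these data known. On simulated data (20 draws of the mean of both arms, 200 of 18193 genes changed) the test found 35.4% of the changes of 0.5 log2. It found 82.0% at 1, 96.6% at 2 and 98.2% at 3 log2, and 4.09% of the genes it called were false. The simulated noise was independent between genes and arrays, whereas deviations on the real arrays were correlated and 1979 genes passed there. These shares therefore need not hold for the real calls.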

Additional observations from a re-analysis of the deposited data

Results flagged for a closer look

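Eno3, an enolase, was the only 1 of the 34 genes whose codes moved in opposite directions in the arms. EPZ4777 minus DMSO was 0.12 in A4 and 0.10 in D11, and -0.46 in A1 and -0.20 in A5. The difference of the effects was -0.44 ± 0.20 (SE) on the log2 scale and did not pass (limma adjusted p 0.752). Of all genes 11.2% had such opposite signs, and of the 34 genes 2.94%.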

How the results depend on the processing

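The number of the 34 genes past the threshold depended on the fit and on single arrays. Their median stayed negative in shLUC, in cells labelled shSirt1 and over both arms. In the other comparisons its sign changed with single arrays. In shLUC cells 1 gene passed, against 2 with quantile normalization or a trended variance. It was 3 with the fixed replicate block or a threshold of 0.10, and 5 with the random block. Of all 18193 genes 724 passed without a block, 1316 with the fixed block and 2379 with the random block. In cells labelled shSirt1 0 passed, against 1 with the mean of all probe sets or median centring, and 2 with either block or at 0.10. Of all genes 72 passed without a block, 404 with the fixed block and 504 with the random block. Over both arms 6 passed, against 11 with the fixed replicate block, 13 with the random block, 12 at 0.10, 2 without code A5, 3 without code A1, and 0 to 14 with 1 array left out. Of all genes 1979 passed over both arms without a block, 2925 with the fixed block and 3718 with the random block. Calls thus rose with a block among all genes too, and not only among the 34. The count of all genes also changed widely with 1 array left out. For the other settings the counts of all genes are not given here. The shifts of the 34 genes in those settings therefore cannot be taken as particular to these genes. Between hairpins in EPZ4777 1 passed at 0.10, against 0. Leaving out an array leaves its group with 1, which is then assumed to vary like the others. With 1 array left out the median ranged from -0.322 to -0.00995 in shLUC, from -0.43 to -0.18 in shSirt1 and from -0.33 to -0.15 over both arms. It ranged from -0.304 to 0.0307 for the difference of effects. Between hairpins it ranged from -0.0511 to 0.161 in DMSO and from -0.24 to 0.15 in EPZ4777. Over both arms Hk1 turned to -0.0638 with the mean of its probe sets, Ldhb to -0.00335 with median centring and to -0.49 without code A5, Pfkfb3 to -0.0678 without A5 and Pdk3 to 0.0448 without A1. With 1 array left out Ldhb ranged from -0.30 to 0.357. The cause of these changes was not tested. The dim-gene filter removed Car9, Eno2, Eno3 and Ankrd37. The left-out codes were chosen after seeing the data. In the simulated data, with 2 arrays a group, most changes of 0.5 log2 were missed, a share that need not hold for the real arrays.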

Other observations

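The A1 DMSO array stood apart in Ldhb and in stroma markers. Ldhb read 8.90 there and 7.21 to 7.59 on the other DMSO arrays. The summed intensity of 8 stroma markers was 557 on that array and 211 to 231 on the others. Without both arrays of code A1 the difference over both arms was 2.51 for Slc2a3, 1.49 for Pfkfb4 and -0.377 for Ero1a. With all arrays it was 2.12, 1.27 and -0.353. Although larger in size without A1, these differences did not keep their calls there. That fit leaves each group of cells labelled shSirt1 with 1 array.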
